A study of Rattus norvegicus with 24 samples.

Results

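Cytokine, chemokine and receptor genes were followed in both heart ventricles of rats at day 14 of a monocrotaline study. The set comprised 75 genes, measured by 77 probes, of the 4126 named genes on the array. A gene belonged to the set when its symbol in the platform annotation began with Il or Ccr and a digit, or with Ccl, Cxcl, Cxcr, Cx3c, Xcl, Tnf, Ifn, Csf or Lif. By role these were 17 chemokine ligands, 8 chemokine receptors, 22 interleukins, interferons and other soluble cytokines, 18 cytokine receptors, 8 tumour necrosis factor (TNF) family members and 2 other proteins, 1 that binds a cytokine and 1 induced by TNF.

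Monocrotaline, made by Crotalaria plants, damages lung arteries in rats, and the right ventricle then pumps against a raised pressure. The conditions are labelled CHF, HYP and CON, read here from the title of the series as heart failure, compensated hypertrophy and control, although the labels do not spell them out and give no dose, strain, sex or age. Each condition had 6 right ventricle and 2 left ventricle samples, and each of the 24 two-colour arrays set 1 sample against a reference pool. The labels number the samples without stating that each came from a separate animal, so that p-values speak of the spread among these samples alone, which may be technical.

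Chemokines are small secreted proteins that draw leukocytes along gradients, and interleukins, interferons and TNF family proteins carry signals between immune, vascular and muscle cells through paired receptor chains. Interleukin-6 and its relatives signal through the shared chain Il6st and the JAK-STAT pathway, while interleukin-1 and TNF act through NF-kappaB. In the overloaded heart these ligands come from infiltrating leukocytes, fibroblasts, endothelium and the cardiomyocytes themselves, and many are made at low levels. In bulk tissue, fewer cells of a type and less RNA per cell cannot be told apart.

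The deposited scores were signed and scaled within each array, with an SD of 0.870 to 1.01, and were centred here on the median of each array. Every level below is such a centred score in array SDs, and every difference is a difference of group means in array SDs, not a log2 fold change. The direction, read as sample over pool, is not settled. No source used here gives the dyes, and the lowest correlation between a pair of arrays across probes was -0.530. Of 10 load-related genes measured as a check, 6 had CHF minus CON differences above 0 in the right ventricle (median 0.321). Ankrd1 was at 1.56, Kcnip2 at 0.737, Col1a1 at -0.107, Timp1 at -0.146 and Col3a1 at -0.849, and none of these passed the test. The 1 that passed between CHF and CON was Acta1, the skeletal actin of the loaded heart. It was 4.35 ± 0.573 (SE) higher in CHF than in CON right ventricles (limma, adjusted p = 0.000157). With the sign turned on 5 arrays its difference was 3.31 with an adjusted p of 0.0849, and none of the 10 passed. Those arrays were CHF right ventricle 10 and 14, CHF left ventricle 09 and CON left ventricle 21 and 22, and each comparison below was repeated with them turned.

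Of the 75 genes, 61 had a value on at least 1 array, and 14 had none, or 18.7% of the members against 11.5% of all features. The 14 were Il4, Il5, Il6, Il10, Il12b, Il24, Ccl20, Cxcl2, Cxcl6, Ccr7, Cx3cr1, Il9r, Il12rb2 and Tnfaip6. Of these, Il6 and Il10 encode cytokines that promote and restrain inflammation, and Cx3cr1 encodes the receptor for the chemokine Cx3cl1 on monocytes. Tnf, the founding TNF ligand, had a single value, 0.995 on a HYP right ventricle array. Ifng, the interferon of T and natural killer cells, also had a single value, 0.718 on a CON right ventricle array. Il18, a cytokine matured by the inflammasome, had a value on 1 CHF right ventricle array and Lifr, the receptor chain for Lif, on 1 HYP right ventricle array. Values on all 24 arrays were present for 11 members, or 14.7%, against 34.8% of the 4651 features of the whole array. No signal over background comes with the scores, so that a missing value is not read as absence of the RNA.

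Values were also unevenly spread over the conditions. A CHF right ventricle array held values for 17 to 39 members (median 37), a HYP array for 29 to 48 (median 43) and a CON array for 27 to 49 (median 43.5). The median share of all features with a value ran the same way, at 62.8% on CHF arrays, 69.3% on HYP arrays and 71.1% on CON arrays. CHF array 12 had the fewest values of all, 2162 of 4803 probes. The difference in values present between conditions was not tested.

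**Figure D1:**
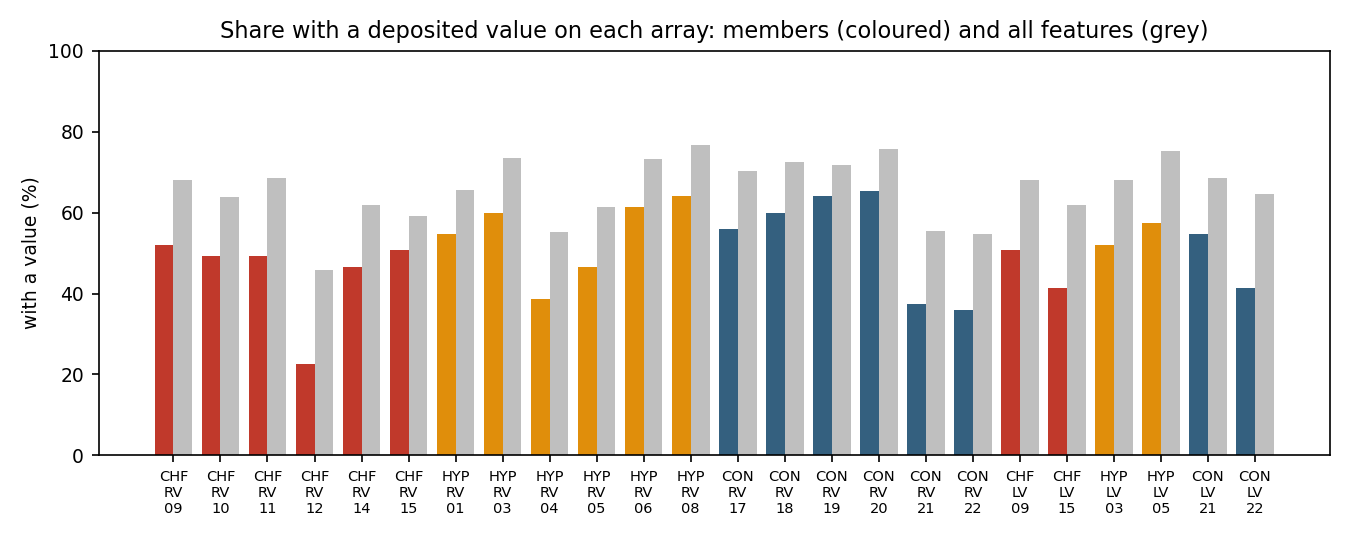
Share of genes with a deposited value on each of the 24 arrays, in percent, for the 75 cytokine and receptor genes (coloured bars, by condition) and for all 4651 features (grey bars). The coloured bar is shortest on CHF right ventricle array 12, where 17 of the 75 genes had a value.

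No CHF array of the right ventricle held a value for 7 genes that had values on at least 2 CON arrays: Ccl3, Ccr1, Csf1r, Csf3, Il3, Il12a and Xcl1. They were 9.33% of the 75 members, against 2.77% of all features, and no member showed the converse (0.258% of all features). Leaving out each CON array in turn gave 5 to 7 such members (6.67% to 9.33%, against 1.74% to 2.75% of all features). Leaving out a CHF array, which cannot lower the count, gave 7 or 8. Ccl3 is a chemokine of macrophages, and its levels were 1.10, -0.996 and -0.926 on 3 HYP arrays and -0.914, -0.656, 0.460 and 0.521 on 4 CON arrays. Csf1r is the receptor that keeps macrophages alive. It stood at 2.22, 1.07 and 1.61 on 3 HYP arrays and at -0.0810, -0.225, 2.84 and -0.0660 on 4 CON arrays. For both genes the HYP and CON values overlapped. Cx3cl1, a chemokine tethered to endothelium, was the 1 member with values on at least 2 HYP arrays, 2.40 and 3.09, and on no CON array (1.33% of members against 1.29% of all features). Values on at least 2 HYP arrays and on no CHF array were found for 4 members (5.33% against 2.97% of all features), Ccl3, Csf1r, Il12a and Cx3cl1. No member had values on at least 2 CON arrays and no HYP array (0.301% of all features), or on at least 2 CHF arrays and no HYP array (0.194%). The genes without a CHF value could not be tested in CHF, since testing took a value on 2 or more arrays of every right ventricle group.

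Of the 75 members, 41 met that minimum and 34 did not, 20 of them with some value. Between CHF and CON none of the 41 passed the test (limma, Benjamini-Hochberg over 3199 features, adjusted p below 0.05), where 0.907% of all features did. At an unadjusted p below 0.05 there were 3 of the 41, or 7.32%, against 8.5% of all features, a share near the background. Adjusted p ran from 0.330 to 0.997. Differences lay above 0 for 20 members and below 0 for 21, where 41.2% of all features lay above 0. The median over the members was -0.0237, against -0.0992 over all features. The median size of the difference was 0.288 for the members and 0.334 for all features. Turning the sign of the 5 arrays again left none of the 41 called, at a lowest adjusted p of 0.400, while 15 changed sign and 0.281% of all features were called.

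The 5 members with the smallest p between CHF and CON were Tnfrsf1b, Ccl2, Tnfrsf8, Il3ra and Il15, and none of the 5 differences passed the test.

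**Figure D2:**
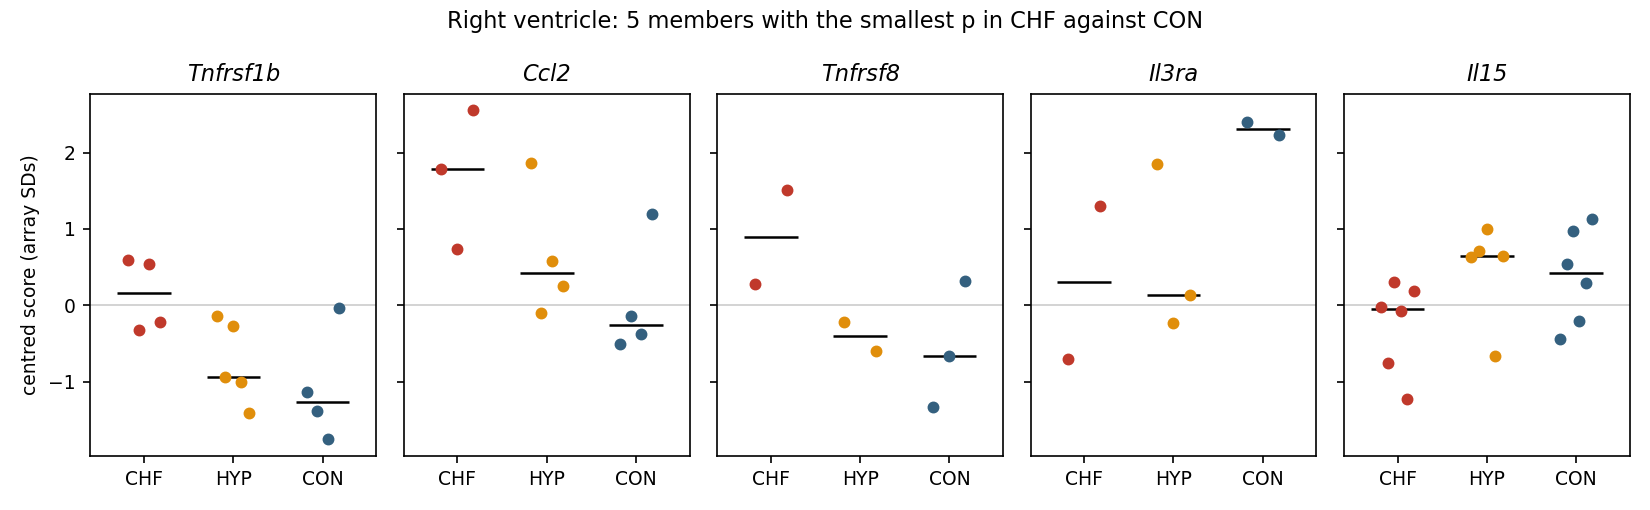
Centred score in array SDs on each right ventricle array (points, by condition) of the 5 members with the smallest p between CHF and CON, with the group median as a bar. Il3ra alone had CHF and CON values that did not overlap, with 2 values in each group.

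Among the chemokine ligands, Ccl2 recruits monocytes through its receptor Ccr2. Its levels were 1.78, 0.733 and 2.56 on 3 CHF arrays, 1.86, -0.102, 0.577 and 0.254 on 4 HYP arrays and -0.512, -0.144, -0.372 and 1.19 on 4 CON arrays. All 3 CHF values were above 0, and 1 of the CON values lay within the CHF range. The CHF minus CON difference was 1.65 ± 0.594 (SE), with an adjusted p of 0.413 by limma, and neither turned array had a value for it. Over the alternatives run it lay between 1.21 and 2.13. Cxcl12, the ligand of Cxcr4 that guides progenitor cells, had a lowest, median and highest level of -0.204, 0.424 and 0.590 on the 6 CHF arrays, -0.949, 0.432 and 1.02 on the 6 HYP arrays and 0.294, 0.707 and 0.955 on the 6 CON arrays. Its groups overlapped. The 9 tested chemokine ligands lay above 0 for 4 and below 0 for 5, with differences from -0.624 to 1.65. Turning the sign put 6 above 0 and 3 below.

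Of all features 41.2% had a CHF minus CON difference above 0. All 5 tested chemokine receptors had CHF minus CON differences below 0, between -0.552 and -0.147, and none passed the test. After the sign was turned, 4 lay below 0 and 1 above. Cxcr4 had a lowest, median and highest level of -1.38, -0.808 and -0.500 on the 6 CHF arrays, -2.11, -0.754 and 0.178 on the 6 HYP arrays and -1.28, -0.705 and -0.0570 on the 6 CON arrays. The Cxcr4 values of the 3 groups overlapped.

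Among the TNF family, 5 of 6 tested members had differences above 0 and none passed the test, and with the sign turned 4 lay above 0. Tnfrsf1b, the second TNF receptor, found mainly on leukocytes and endothelium, stood at 0.596, -0.331, 0.543 and -0.221 on 4 CHF arrays, at -0.138, -0.942, -0.268, -1.0 and -1.41 on 5 HYP arrays and at -1.14, -1.39, -1.76 and -0.0420 on 4 CON arrays. Of the CON values, 1 lay within the CHF range and 3 below it. The CHF minus CON difference was 1.23 ± 0.422 (SE), the smallest p of the 41 members in this comparison (unadjusted 0.0115), with an adjusted p of 0.330 by limma. It was 1.12 with the sign turned and 1.27 without the 2 turned arrays, and over the alternatives run it lay between 1.0 and 1.58 with adjusted p between 0.131 and 0.783. A second probe annotated to Tnfrsf1b had no value on any array.

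Tnfrsf8, the lymphocyte activation receptor CD30, had levels of 0.278 and 1.51 on 2 CHF arrays, -0.215 and -0.596 on 2 HYP arrays and -1.33, -0.666 and 0.319 on 3 CON arrays. Both CHF values came from the turned arrays, and the difference of 1.45 ± 0.623 (SE, limma, adjusted p = 0.580) became -0.332 with the sign turned. Tnfrsf1a, the widely expressed first TNF receptor, lay at 0.124, 0.192, 0.439, 0.439 and -0.223 on 5 CHF arrays. On the 6 HYP arrays its lowest, median and highest levels were -2.87, 0.578 and 1.02, and on the 6 CON arrays -0.621, 0.0302 and 1.31. All 5 CHF values fell within the CON range.

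Among the soluble interleukins and interferons, 6 of 9 differences lay above 0 (7 with the sign turned), between -0.649 and 0.411, and none passed the test. Il15 supports natural killer and memory T cells. It had a lowest, median and highest level of -1.24, -0.0470 and 0.298 on the 6 CHF arrays, levels of 0.637, 0.714, 0.993, -0.660 and 0.648 on 5 HYP arrays, and a lowest, median and highest level of -0.441, 0.417 and 1.13 on the 6 CON arrays. The lowest Il15 values came from the 2 turned CHF arrays. The CHF minus CON difference of -0.649 ± 0.358 (SE, limma, adjusted p = 0.640) became 0.0170 with the sign turned and -0.283 without the 2 arrays, and was -0.377 with array weights.

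Il1b and Il1a encode the interleukin-1 proteins, early alarm signals of injured tissue. Il1b had a lowest, median and highest level of -0.175, 0.170 and 0.901 on the 6 CHF arrays and -0.863, -0.0452 and 1.19 on the 6 HYP arrays, against -0.585, -0.302, 0.0200, -0.363 and 0.740 on 5 CON arrays. For Il1a these levels were -0.829, -0.149 and 1.22 on CHF arrays, -0.955, -0.175 and 1.17 on HYP arrays and -0.976, -0.482 and 1.13 on CON arrays, 6 of each. The groups overlapped for both. Lif, an interleukin-6 relative that drives cardiomyocyte growth in culture, stood at 1.34, 0.436 and 1.34 on 3 CHF arrays, 1.07, 1.05, -0.762 and 0.967 on 4 HYP arrays and -0.130, 1.0, 1.58 and 0.808 on 4 CON arrays, again with overlap.

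Of the 11 tested cytokine receptors, 5 had CHF minus CON differences above 0 and 6 below (3 and 8 with the sign turned), and none passed the test. Il3ra, the ligand-binding chain of the interleukin-3 receptor, had levels of -0.699 and 1.30 on 2 CHF arrays, 1.85, -0.239 and 0.134 on 3 HYP arrays and 2.39 and 2.23 on 2 CON arrays. Both CON values lay above every CHF and HYP value, and Il3ra was the 1 member of 41 whose CHF and CON groups did not overlap (3.22% of all features did not). Its difference was -2.01 ± 0.870 (SE), with an adjusted p of 0.583 by limma, and -1.31 with the sign turned and -1.30 with array weights. Il1r1, the signalling receptor for interleukin-1, had levels of -1.61, -0.268, -1.76, 0.388 and -0.501 on 5 CHF arrays, a lowest, median and highest level of -2.35, -1.57 and 0.834 on the 6 HYP arrays, and levels of -0.668, -1.44, -0.736 and -0.209 on 4 CON arrays. The CHF values spanned the whole CON range. Ifngr1, which binds interferon gamma, had a median of -0.802 on 5 CHF arrays, -0.572 on the 6 HYP arrays and -0.848 on the 6 CON arrays, with overlapping ranges.

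Outside the 5 members with the smallest p, the other 36 had CHF minus CON differences between -0.624 and 0.977 with adjusted p from 0.640 to 0.997. For the 13 members with values on all 6 arrays of both groups, the 95% intervals reached 0.452 to 0.907 array SDs either side of the difference, and the bounds ran from -1.40 to 1.12. The SD within a right ventricle group ranged from 0.285 to 1.45 over the 41 members (median 0.708), against a median of 0.662 over all features tested.

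**Figure D3:**
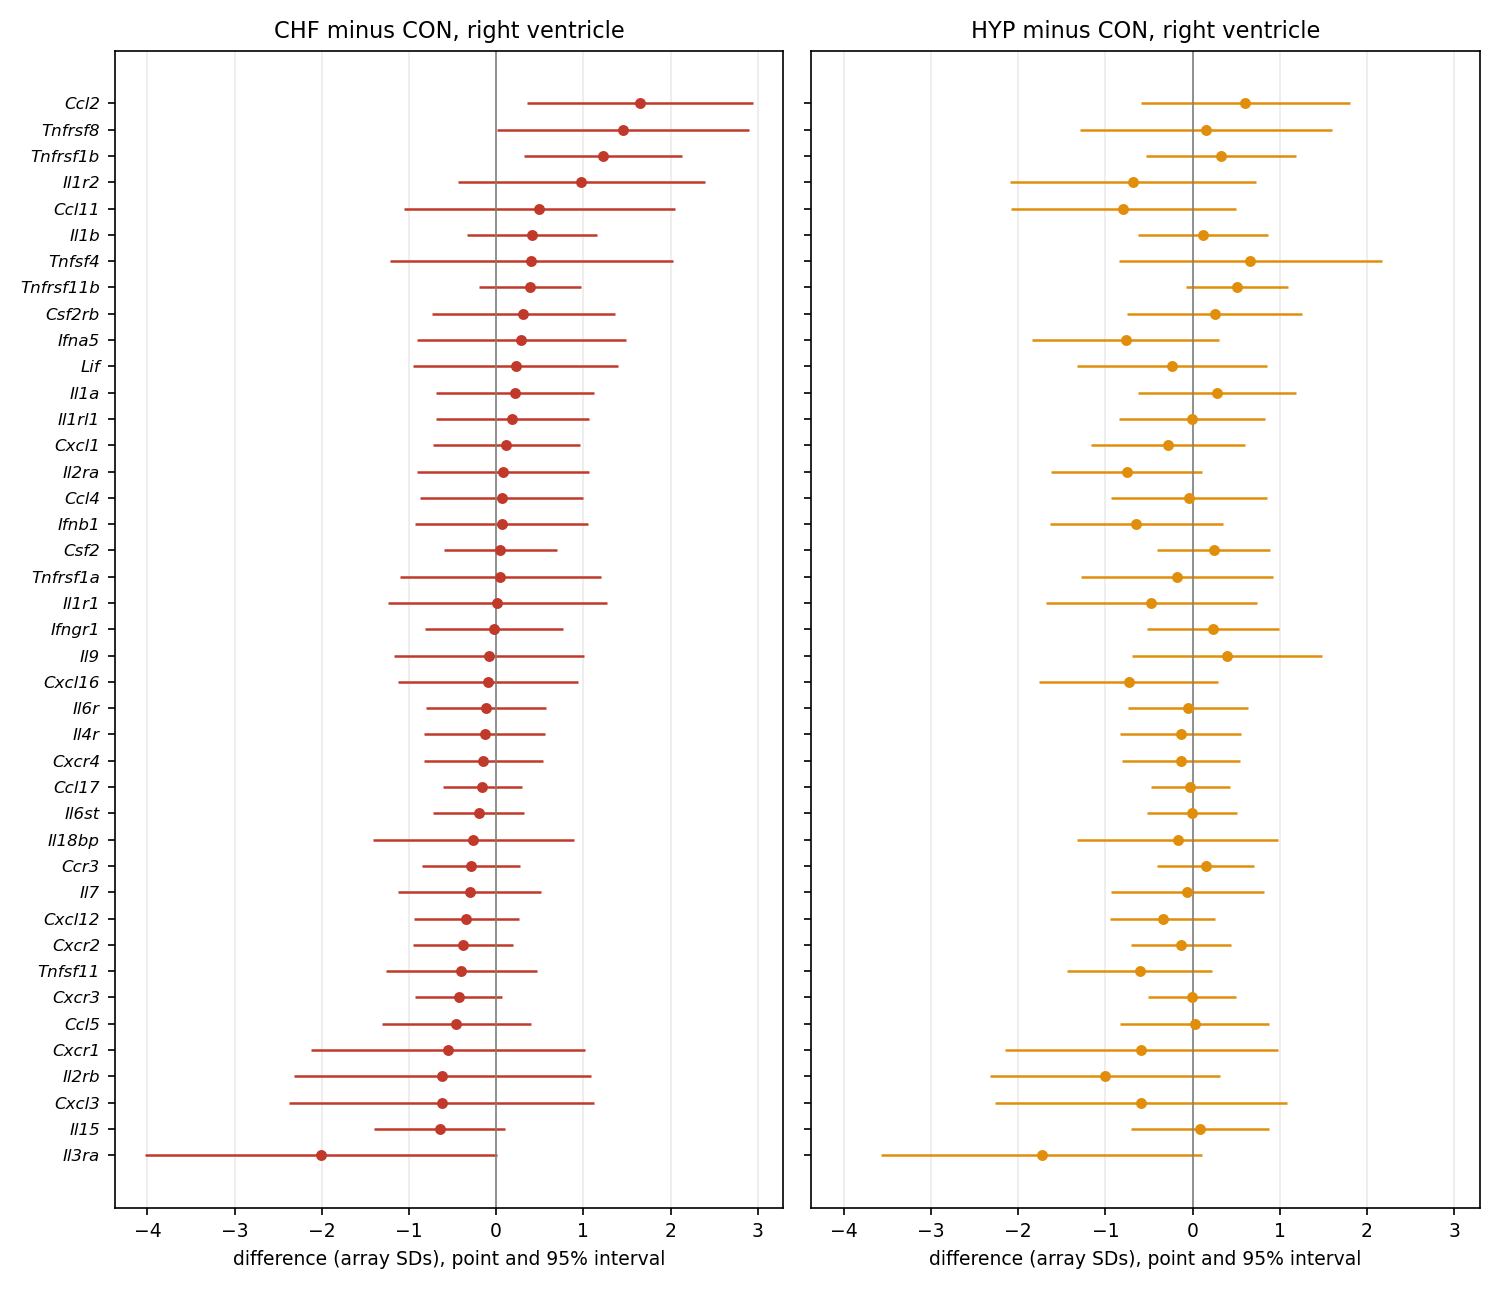
Differences of the 41 tested members in the right ventricle, CHF minus CON (left) and HYP minus CON (right), in array SDs, as points with 95% intervals and ordered by the CHF minus CON difference. Differences run from -2.01 to 1.65 in CHF and from -1.73 to 0.664 in HYP, and both panels share the same 6 CON samples.

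Between HYP and CON in the right ventricle none of the 41 members passed the test by limma, where 0.281% of all features did. None reached an unadjusted p below 0.05 either, against 4.1% of all features. Differences lay above 0 for 14 members and below 0 for 27, where 43.8% of all features lay above 0. The median over the members was -0.0580, against -0.0456 over all features. The adjusted p was 0.9997 for each member. In the fit with the 5 arrays turned 0.0313% of all features were called. The turned arrays are in neither group, so the members' differences were the same with the sign turned. This comparison shares its CON samples with the one between CHF and CON.

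The 5 members with the smallest p between HYP and CON were Il3ra, Il2ra, Tnfrsf11b, Il2rb and Tnfsf11, with differences of -1.73 ± 0.794, -0.754 ± 0.400, 0.511 ± 0.279, -1.0 ± 0.602 and -0.607 ± 0.391 (SE). Single arrays moved 3 of these. On leaving out CON array 18 Il2rb stood at -1.59, on leaving out CON array 22 at -0.449. Without HYP array 04 Tnfrsf11b was at 0.294 and Tnfsf11 at -0.356, and Tnfsf11 was at -0.362 once CON array 18 was left out. With array weights Tnfrsf11b was at 0.221 and Tnfsf11 at -0.245. Il2ra and Il2rb are chains of the interleukin-2 receptor of T cells. Il2ra lay at 0.429, -1.09, -0.852, -0.914 and -0.667 on 5 HYP arrays and at 0.120, -0.169, -0.0420 and 0.632 on 4 CON arrays. The HYP and CON groups of Il3ra did not overlap (1 of 41 members against 1.91% of all features). Of the Il2ra values on HYP arrays 4 were below every CON value and 1 was within the CON range. Il2rb lay at 1.12, 0.255, -0.427, 0.288 and -0.138 on 5 HYP arrays and at -0.534, 1.18, 1.36 and 2.88 on 4 CON arrays, with overlap.

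Tnfrsf11b encodes osteoprotegerin, a soluble decoy that captures the ligand Tnfsf11 (RANKL). Tnfrsf11b had a lowest, median and highest level of -0.779, 0.0695 and 0.415 on CHF arrays, -0.493, -0.0187 and 1.14 on HYP arrays and -0.798, -0.400 and -0.30 on CON arrays, 6 of each. Its CHF minus CON difference was 0.383 ± 0.279 (SE, limma, adjusted p = 0.734), 0.165 with the sign turned and 0.182 without the 2 turned arrays. Tnfsf11 had a lowest, median and highest level of -2.33, -1.10 and -0.306 on the 6 HYP arrays, against -0.604, 0.258, -0.532 and -1.03 on 4 CON arrays. The HYP and CON values overlapped for both genes.

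Between CHF and HYP in the right ventricle none of the 41 members passed the test, nor did any of the 3199 features by limma (0%). At an unadjusted p below 0.05 there were 2 members, or 4.88%, against 4.94% of all features. Once the 5 arrays were turned, none of the members and 0.0313% of all features were called. Il1r2, the decoy receptor that binds interleukin-1 without signalling, stood at -1.30, 0.575, -0.211, 0.917 and -0.284 on 5 CHF arrays and at -1.49, -3.80, -1.68, -1.12 and -0.515 on 5 HYP arrays. Of the CHF values 4 were above every HYP value and 1 lay within the HYP range. The CHF minus HYP difference was 1.66 ± 0.625 (SE, unadjusted p = 0.0181, adjusted p = 0.938 by limma) and 1.06 with the sign turned. On 4 CON arrays Il1r2 stood at -0.467, -2.73, -0.647 and -0.310.

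The other member below that threshold was Tnfrsf1b, 0.898 ± 0.401 (SE) higher in CHF than in HYP with an adjusted p of 0.938 by limma and 0.792 with the sign turned. Il15 at -0.734 ± 0.376, Il2ra at 0.831 ± 0.435 and Ifna5, a type I interferon, at 1.05 ± 0.567 (SE) followed by p. In the turned fit these were -0.0682, 0.579 and 1.29. Without the 2 turned arrays Il15 was at -0.368. Leaving out CHF array 09 put Il2ra at 1.27 and Ifna5 at 0.619, and leaving out CHF array 15 put Il2ra at 0.477. Il2ra lay at -0.663, 0.379 and 0.922 on 3 CHF arrays. Ifna5 lay at 1.86, -0.477, -0.0130 and 0.844 on 4 CHF arrays, with a lowest, median and highest level of -1.35, -0.461 and 0.329 on the 6 HYP arrays. Tnfrsf8 was the 1 member whose CHF and HYP groups did not overlap, with 2 values in each (2.56% of all features did not).

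In the left ventricle the 3 conditions had 2 samples each, and 25 members had values on at least 2 arrays of all 6 groups. None of the 25 passed the test between CHF and CON, HYP and CON or CHF and HYP, and neither did any of the 2494 features tested (0%), by limma on all 24 arrays, which assumes that the left ventricle groups vary like the right. None of the 25 reached an unadjusted p below 0.05 either, against 0.882%, 1.84% and 3.01% of all features. Differences ran from -0.884 to 0.996 for CHF minus CON, from -1.36 to 0.927 for HYP minus CON and from -0.858 to 1.16 for CHF minus HYP. The difference of the CHF effect between right and left ventricle was called for none of the 25 members, and likewise for HYP (0% of all features in both). None of the 25 had an unadjusted p below 0.05 in either, against 2.73% of all features for CHF and 2.49% for HYP. No member was called with the sign turned in any of these comparisons, while 3.85% of all features were called between HYP and CON in the left ventricle, and 0.361% and 1.32% for the differing CHF and HYP effects.

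Tnfrsf1b and Ccl2 had too few left ventricle values for these tests. Tnfrsf1b stood at -0.0940 and 3.14 in the CHF left ventricles, -1.32 and -0.692 in the HYP ones and -0.500 in the 1 CON left ventricle with a value. Ccl2 had 1 value in CHF, 0.765, 1 in HYP, -0.791, and none in CON.

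The 25 members tested between ventricles included 5 chemokine receptors, 9 cytokine receptors and 2 TNF family members. Averaged over the 3 conditions, 4 of the 25 passed the test between the ventricles, 3 cytokine receptors and 1 chemokine receptor. They were 16.0% of the members, against 18.3% of all features, a share near the background. By direction 2 were higher in the right ventricle (against 11.8% of all features) and 2 lower (6.54% of all features). At an unadjusted p below 0.05 there were 9 members, or 36.0%, against 36.1% of all features. For none of the 25 did all right ventricle values lie apart from all left ventricle values (0.481% of all features). None of the 25 members and none of the 2494 features was called with the sign turned. The turned arrays were picked by a lower correlation to right ventricle arrays, and included CHF left ventricle 09 and CON left ventricle 21 and 22. Turning can thus bring left arrays nearer to right ones. Calls lost with the sign turned, here and below, therefore cannot decide a difference between ventricles.

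Both chains of the interleukin-6 receptor were among the 4, in opposite directions. Il6st, the signal-transducing chain also known as gp130, had a lowest, median and highest level of -0.975, -0.445 and -0.168 in CHF, -0.764, -0.247 and 0.126 in HYP and -0.812, -0.234 and 0.244 in CON right ventricles, 6 of each. In left ventricles it stood at -0.0500 and 0.770 in CHF, 0.433 and 0.517 in HYP and 0.190 and 0.140 in CON. Of the 6 left ventricle values, 3 lay above every right ventricle value. The right minus left difference was -0.716 ± 0.191 (SE, limma, adjusted p = 0.0170). It was -0.477 with the sign turned (adjusted p = 0.417) and -0.552 without centring (adjusted p = 0.0636). Leaving out CHF left ventricle 15, CON left ventricle 21 or CON left ventricle 22 ended the call, with differences of -0.724 to -0.579.

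Il6r, the chain that binds interleukin-6 itself, had a lowest, median and highest level of -0.345, 0.172 and 0.522 in CHF, -0.541, -0.0288 and 1.76 in HYP and -0.263, 0.243 and 0.655 in CON right ventricles. In left ventricles it stood at -0.236 and -0.160 in CHF, -0.508 and -1.02 in HYP and -0.610 and -0.790 in CON, each below the right ventricle median of its condition. The difference was 0.713 ± 0.248 (SE, limma, adjusted p = 0.0488), and 0.0918 with the sign turned (adjusted p = 0.884). The call was lost on leaving out any of 18 of the 24 arrays (differences of 0.628 to 0.799). It held only without HYP right ventricle 01, 04, 05 or 06, CHF right ventricle 14 or CON right ventricle 22.

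Il1rl1 encodes ST2, the receptor for interleukin-33, whose soluble form is a serum marker of heart failure. On 5 CHF right ventricle arrays its median was -0.837, between -1.42 and 0.688. The lowest, median and highest levels were -1.32, -0.591 and 0.479 in the 6 HYP and -1.17, -0.764 and 0.504 in the 6 CON right ventricles. In left ventricles it stood at 0.552 and -0.130 in CHF, -0.0960 and 0.668 in HYP and 0.400 and 1.04 in CON, each above the right ventricle median of its condition. The difference was -0.929 ± 0.312 (SE, limma, adjusted p = 0.0441) and -0.419 with the sign turned (adjusted p = 0.467). With the probe holding the most values alone it was -0.587 (adjusted p = 0.144), and without centring -0.776 (adjusted p = 0.0529). Leaving out any of 18 of the 24 arrays ended the call (differences of -1.06 to -0.802). It held only without HYP right ventricle 04, CHF right ventricle 10, 12 or 14, or CON right ventricle 19 or 20.

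Cxcr2, the neutrophil receptor for chemokines such as Cxcl1, had a lowest, median and highest level of -0.377, 0.133 and 0.475 in CHF, -0.304, 0.330 and 1.06 in HYP and 0.0410, 0.433 and 1.34 in CON right ventricles, 6 of each. In left ventricles it stood at -0.681 and -0.140 in CHF, -0.331 and 0.179 in HYP and -0.390 and -0.290 in CON, with overlap in CHF and HYP and none in CON. The difference was 0.620 ± 0.210 (SE, limma, adjusted p = 0.0442), and 0.207 with the sign turned (adjusted p = 0.667). Leaving out any of 15 of the 24 arrays ended the call, with differences of 0.529 to 0.710. It held only without HYP right ventricle 01, 04 or 06, CHF right ventricle 10 or 14, CON right ventricle 20, 21 or 22, or HYP left ventricle 05.

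**Figure D4:**
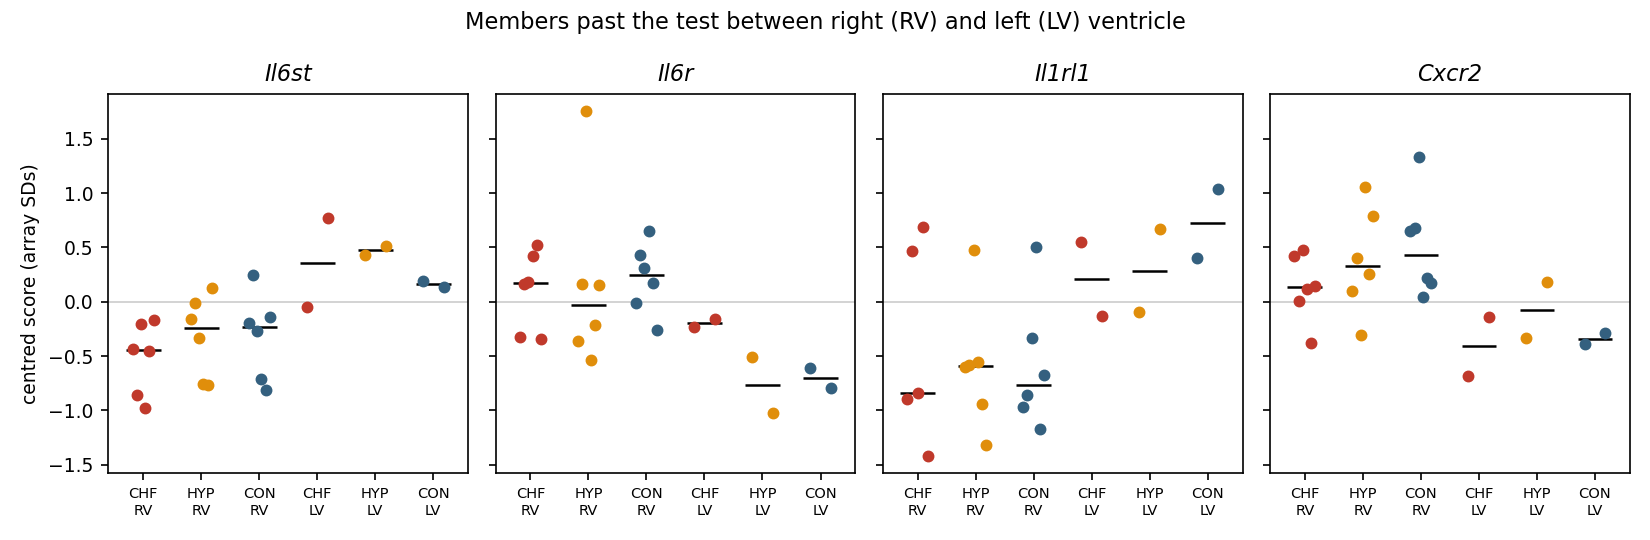
Centred score in array SDs on each array (points) for the 4 receptors past the test between ventricles, by condition in the right (RV) and left (LV) ventricle, with the group median as a bar. Il6st and Il1rl1 sit lower in the right ventricle and Il6r and Cxcr2 higher, with right and left values overlapping for each of the 4.

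The number of members called between ventricles fell to 0 without CHF left ventricle 15, CON left ventricle 21 or CON left ventricle 22, and was 7 without HYP right ventricle 04 and 6 without CHF right ventricle 14. It was 1 without HYP right ventricle 03 or 08, CHF right ventricle 09, 11 or 15, CON right ventricle 17 or 18, HYP left ventricle 03 or CHF left ventricle 09. It was 2 without HYP right ventricle 05, CHF right ventricle 12, CON right ventricle 19 or 21, or HYP left ventricle 05. Markers of other cells were also compared between the ventricles. There 18.3% of all features passed, 11.8% as higher and 6.54% as lower in the right ventricle, with a median difference of 0.0344. All 4 tested erythrocyte markers were lower in the right ventricle, with a median right minus left difference of -5.44, and -1.31 with the sign turned. Of 11 cardiomyocyte markers 10 had differences below 0 and 3 passed the test as lower in the right ventricle (median -1.03, and -0.377 turned). Fibroblast markers passed as higher for 2 of 5 (median 0.319, and 0.555 turned) and smooth muscle markers for 1 of 5 (median -0.0511, and 0.159 turned). Of 2 lung and liver markers 1 passed as lower (median -0.593, and -0.405 turned). Of 8 leukocyte markers tested none passed (median -0.30, and -0.129 turned). The 1 tested endothelial marker, Flt1, did not pass (0.276, and -0.0466 turned). None of these markers passed in the turned fit. The part of these markers in the receptor differences was not tested. The scores of CHF left ventricle 15 and CON left ventricle 21 and 22 were deposited with fewer decimals than the others.

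Genes that carry or answer cytokine signals were taken from pathway lists. Of the JAK-STAT list 12 genes were tested between CHF and CON and none passed, with a median difference of 0.142, against -0.138 with the sign turned. Of 5 NF-kappaB genes, 4 cytokine-processing genes and 7 interferon targets tested none passed, where 0.907% of all features did. Among 9 inducible inflammatory targets, 1 passed: Fgb, a fibrinogen chain that interleukin-6 induces in liver, was 1.91 ± 0.338 (SE) higher in CHF than in CON (limma, adjusted p = 0.00456), and 1.30 higher with the sign turned (adjusted p = 0.282). Cp, another target on that list, was at 1.04 ± 0.344 (SE) in CHF minus CON without passing (limma, adjusted p = 0.283). With the sign turned it was at 1.27 (adjusted p = 0.167). Fga, another fibrinogen chain, was at -0.848 ± 0.332 (SE) in CHF minus CON without passing (adjusted p = 0.440), and at -0.516 with the sign turned. None of the 5 lists had a called gene between HYP and CON, where 0.281% of all features were called.

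Between the ventricles, 3 of 11 JAK-STAT genes passed by limma, where 18.3% of all features did, and lost the call with the sign turned. Jak2, a kinase bound to cytokine receptors, was 0.904 ± 0.180 higher in the right ventricle (adjusted p = 0.00402). Stat3, the transcription factor that Il6st activates, was at -1.19 ± 0.376 (adjusted p = 0.0399) and Ptpn11, a phosphatase recruited to Il6st, at -1.61 ± 0.418 (SE, adjusted p = 0.0146). With the sign turned these differences were 0.0773, -0.258 and -0.134. Of 8 inducible targets, Fga was 1.71 ± 0.253 (SE) higher in the right ventricle (adjusted p = 0.000215 by limma) and Timp1, an inhibitor of matrix proteases, passed at -1.07 ± 0.350 (SE, adjusted p = 0.0408). Of 6 interferon targets, Tap2, a peptide transporter of antigen presentation, passed at -5.45 ± 0.937 (SE, adjusted p = 0.00155). These 3 also lost the call with the sign turned, at 0.614, -0.452 and -1.82. None of 3 NF-kappaB and 2 cytokine-processing genes passed.

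Leukocyte markers gave a check on infiltrating cells in the same samples. Of the 17 on the array 3 had no value and 11 were tested in the right ventricle, and none passed between CHF and CON (median difference -0.0882, against -0.0992 over all features). In the turned fit, where none passed either, that median was -0.431, against -0.0918 over all features. Their mean level per array ran from -0.461 to 0.515 on CHF arrays, from -0.335 to -0.0216 on HYP arrays and from -0.284 to 0.505 on CON arrays. The ranges overlapped in all 3 groups. S100a8, a neutrophil protein, and Cd5 had the smallest p of these markers. Their CHF minus CON differences were -0.337 ± 0.197 and 0.721 ± 0.414 (SE), with adjusted p of 0.663 and 0.669 by limma. Ptprc, the pan-leukocyte marker CD45, named outside that order, was at 0.626 ± 0.602 (SE), with an adjusted p of 0.807 by limma. In the turned fit Ptprc was at -0.476, S100a8 at -0.121 and Cd5 at 0.721.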

How the data were processed

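RNA from 24 rat ventricle samples was measured on 2-colour arrays against a reference pool, per the labels. The authors' deposited values are 1 score per probe and array (mean -0.0345 to 0.0713). Their scale, scanner, dyes, background correction, normalization and filter: not given in the sources used here. An array held 2162 to 3658 values of 4803 probes (precision rests on the number of arrays). Of the probes, 4278 had 1 symbol in the platform annotation, 4 several and 521 none. Probes of 1 symbol were averaged. Array medians (-0.2 to 0.217) lay further apart than 0.2, so each array was centred on its median.

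Groups were compared in R 4.3.3 with the lmFit and eBayes functions of limma 3.58.1 (statmod 1.5.0 for the block), Benjamini-Hochberg over all features, adjusted p below 0.05, with a minimum of 2 values in every group. Right ventricle comparisons used 18 arrays, the others 24. The code was tested on simulated data. In pairs of arrays correlating below -0.3, the one whose median correlation to right ventricle arrays was lower had its sign turned. Since that choice rested on right ventricle arrays, the turned fit cannot decide differences between ventricles. Other alternatives were the deposited scores uncentred, other limits on missing values, single probes, array weights, a replicate block, each array left out and, chosen after seeing the data, the 2 turned right ventricle arrays left out. Named members were those past the threshold, the 5 (between ventricles, 3) with the smallest p and 24 genes often studied in the loaded heart. Of these 24, 21 were on the array and 12 tested. Members and lists were chosen with earlier results of these data known. Of other lists, genes past the threshold and at most 2 more per list were named, and Acta1 and other load-related genes as a check of direction. Ptprc was named outside this rule.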

Additional observations from a re-analysis of the deposited data

Results flagged for a closer look

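In 6 of the 59 groups of 4 to 6 values examined, the end value stood further from its neighbours than Dixon's test allows, and chance gives about 1 in 20. Of the 6, 5 were in HYP right ventricles. Il15 was -0.660 on HYP array 06, where the other 4 arrays with a value lay between 0.637 and 0.993. Il2ra was 0.429 on HYP array 01, with the other 4 between -1.09 and -0.667. Lif was -0.762 on HYP array 05, with the other 3 between 0.967 and 1.07. Both remaining HYP values came from array 04, where Il6r was 1.76 (the other 5 between -0.541 and 0.159) and Tnfrsf1a was -2.87 (the other 5 between -0.346 and 1.02). Il1r2 was -2.73 on CON right ventricle array 18, with the other 3 between -0.647 and -0.310. The part of each array in these values was not tested.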

How the results depend on the processing

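Members called stayed at 0 under every alternative run for the 3 right ventricle comparisons, the 3 left ventricle comparisons and the 2 differences of an effect between ventricles. Members called between ventricles numbered 4, but 0 with the sign turned, 1 with 1 or more values per group, 11 with array weights, and 0 to 7 on leaving out each array. With array weights this was 44.0% of members, against 43.3% of all features. With 1 or more values per group it was 2.70%, against 14.0% of all features. With 1 or more values per group the calls of Il1rl1, Cxcr2 and Il6r ended (limma, adjusted p = 0.0516, 0.0539 and 0.0573). Of all features, CHF against CON in the right ventricle called 29, but 9 with the sign turned, 18 without the 2 turned arrays (chosen after seeing the data) and 16 to 38 on leaving out each array (16 without CON 19 and 17 without CHF 10). HYP against CON called 9, but 1 with the sign turned, 0 with the 2 groups alone and 3 to 9 on leaving out each array (3 or 4 without HYP 01, 04 or 06 or CON 17, 18, 19 or 22). CHF against HYP called 0, but 1 with the sign turned, 1 with array weights and 0 to 1 on leaving out each array (1 without CHF 11). In the left ventricle HYP against CON called 0, but 96 with the sign turned and 0 to 4 on leaving out each array, and CHF against HYP 0 to 5 (4 and 5 without HYP left ventricle 03). Between ventricles 457 features were called, but 0 with the sign turned, 1079 with array weights and 140 to 683 on leaving out each array (140 to 269 without HYP 03, CHF 09, CHF 15, CON 21 or CON 22 of the left ventricle). The difference of the CHF effect between ventricles called 0, but 9 with the sign turned, 1 with values on every array, 3 with array weights and 0 to 6 on leaving out each array (6 without CHF left ventricle 09). For HYP it called 0, but 33 with the sign turned, 7 with values on every array, 4 with probes not averaged and 0 to 8 on leaving out each array (8 without CON right ventricle 21 or CHF left ventricle 09). With the sign turned the CHF minus CON difference became -0.332 for Tnfrsf8 and 0.0170 for Il15. The cause was not tested for any of these. No signal over background came with the scores, and missing values left 34 of the 75 members untested.

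Right and left ventricle arrays share numbers. Deviations of same-numbered arrays from their group means correlated at 0.245, 0.272, -0.217, 0.310, 0.0127 and 0.0591 across features (03, 05, 09, 15, 21 and 22). With the sign turned these were 0.245, 0.272, -0.277, 0.316, -0.0127 and -0.0591. The highest correlation with another left ventricle array was 0.159, 0.398, 0.212, 0.149, 0.135 and 0.195. With 2 left ventricle arrays per group, their deviations mirror each other, so these values cannot decide whether the numbers mark pairs. The labels do not state it, and the main test did not take the numbers as pairs. The number was also used as a replicate block (duplicateCorrelation, consensus correlation 0.231). Then 8 of 25 members (32.0%) and 744 of 2494 features (29.8%) were called between ventricles. For the CHF and HYP effect between ventricles 4 and 6 features were called. In the 6 same-numbered pairs alone with a fixed replicate block, 7 of 17 members (41.2%) and 998 of 2097 features (47.6%) were called. Il6r was no longer among them (0.364, adjusted p = 0.150 by limma).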
